A study of Mus musculus with 39 samples.

Results

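The lungs of old vehicle-treated mice were compared with the lungs of young mice, gene by gene, to describe how the lung transcriptome of perforin-deficient animals differed between 3 and 20 months of age. The comparison took 7 of the 39 libraries of the series, 4 from young and 3 from old vehicle-treated mice, and used every gene expressed in lung. Young libraries carry the replicate numbers 1 to 4 and vehicle libraries the numbers 3 to 5. All mice, young mice included, were Prf1-/- on a C57BL/6 background and were male, so the lack of perforin, the pore-forming protein of cytotoxic lymphocytes, is shared by both groups and is not what was compared. Young mice were 3 months old and untreated. Old mice were 20 months old and had received intraperitoneal injections of a DMSO-based vehicle on 2 consecutive days at the start of each of 2 months from the age of 18 months. Age and vehicle injection therefore cannot be told apart in this comparison. A further group of 3 old lungs, from mice given the BCL-2 family inhibitor ABT-737 on the same schedule, entered the model only to estimate the spread between mice. The treatment labels of replicates 4 and 5 of that group give the compound another number, and they were taken as ABT-737 from their titles and the study's methods.

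The lung is built of a thin gas-exchange epithelium of alveolar type 1 and type 2 cells, conducting airways lined by club and ciliated cells, a dense capillary bed, and a supporting stroma of fibroblasts, smooth muscle and pericytes that lays down the collagen and basement membrane network. Resident macrophages and recruited lymphocytes and myeloid cells share this space, and immune cells are known to accumulate in the ageing lung. The lung also holds a strong circadian clock, in which the activators BMAL1 (encoded by Arntl), NPAS2 and CLOCK switch on Per, Cry and Nr1d genes through E-box sequences, and the proteins made from those genes then shut the activators down. Because many transcripts follow this rhythm, a difference in the clock phase at which tissues were collected appears as a difference in expression. The time of day of collection is not given in the sources used here.

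The tissue was perfused, and libraries were made by a bulk form of MARS-seq, which reads the 3′ ends of transcripts. Total counts per library ranged from 1506934 to 2033866 in young and from 1379296 to 2600092 in vehicle lungs. Rank correlations across genes were at least 0.958 between young libraries, and between vehicle libraries they were 0.912 for replicates 3 and 4, 0.897 for replicates 3 and 5, and 0.867 for replicates 4 and 5. The defining transcripts of lung epithelium were abundant in all 7 libraries, with a summed level of club and secretory cell markers of 14588 to 48601 CPM (a gene's counts, taken relative to the library total after scaling by edgeR's TMM factors). Markers of squamous epithelium (12 genes) and of cartilage (14 genes) did not reach the expression filter. Prf1 itself had 10.8, 9.04, 8.68 and 7.80 CPM in young replicates 1 to 4 and 9.39, 6.86 and 10.1 CPM in vehicle replicates 3 to 5. These levels overlapped (log2 fold change −0.05 ± 0.57 SE, adjusted p = 0.966), and since every mouse carried the deletion, and the sources used here do not say which exons remain, Prf1 checks no label.

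Of 11949 genes tested, 1539 (12.9%) were called at an adjusted p under 0.05 by the quasi-likelihood test of edgeR, adjusted by the Benjamini-Hochberg method, 974 of them higher (8.15% of the genes tested) and 565 lower (4.73%) in old vehicle-treated lung. The median log2 fold change over all genes tested was 0.04, and a log2 fold change of 1 stands for a doubling. Among the called genes with the largest rises were the chemokines Cxcl9, Ccl2, Cxcl10 and Ccl8, and among those with the largest falls were the clock genes Nr1d1 and Dbp. Of the 1539 calls, 1464 had levels that did not overlap between the 7 libraries, against 3559 (29.8%) of all genes tested. A total of 444 genes (3.72% of those tested), 331 higher and 113 lower, kept their call whichever of the 7 compared libraries was removed, and these are described below as kept in all leave-one-out fits. In such bulk samples, a lower transcript level from fewer cells of a type and from less RNA per cell cannot be told apart. The p-values measure the spread between the mice of the 3 lung groups in the model alone, the ABT-737-treated mice included.

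**Figure D1:**
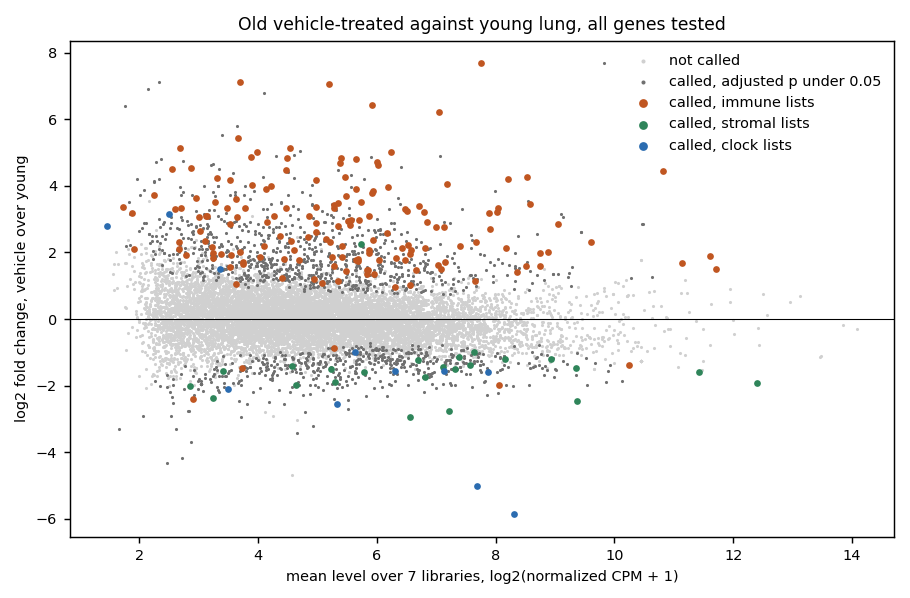
Log2 fold change, vehicle over young, against the mean level over 7 libraries as log2(normalized CPM + 1) for the 11949 genes tested, 1 point per gene, with called members of the immune, stromal and clock lists coloured. Called immune genes lie almost wholly above 0 (154 higher, 5 lower) and called stromal genes almost wholly below it (1 higher, 23 lower), and the lowest 2 coloured points are the clock genes Dbp and Nr1d1.

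Clock genes differed between young and old lungs in both arms of the clock. Of 14 genes of its repressor and output arm, 8 fell and 0 rose, with a median log2 fold change of −1.55, and of 7 genes of the activator arm, 3 rose and 0 fell, with a median of 0.57. The sum of normalized CPM over the 21 clock genes was 1704.89 to 1989.87 in young lungs and 527.123, 553.228 and 330.279 in vehicle replicates 3, 4 and 5. With 11 of 21 genes called (52.4%, against 12.9% of all genes tested), the clock lists held 0.715% of the 1539 calls, and the other 1528 called genes lay outside them. Of the 11, 7 were kept in all leave-one-out fits.

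Nr1d1, which encodes the repressor REV-ERBα, had 478, 657, 516 and 539 CPM in young replicates 1 to 4 and 3.35, 22.3 and 1.87 CPM in vehicle replicates 3 to 5. Every young library lay far above every vehicle library, and the log2 fold change was −5.86 ± 0.81 (SE, adjusted p = 0.00259). Nr1d1 (chr11:98767932-98775377, mm10) overlaps the 3′ part of Thra on the other strand, and whether reads were counted by strand is not given in the sources used here. Dbp, a PAR-domain transcription factor that carries the clock's signal to output genes, had 283, 355, 412 and 358 CPM in young (352 ± 53.1, SD, n = 4) and 11.4, 12 and 9.35 CPM in vehicle lungs (10.9 ± 1.39, SD, n = 3). It had the smallest adjusted p of any gene tested (log2 fold change −5.01 ± 0.32, adjusted p = 2.79e-06), and it overlaps Sphk2 on the other strand at chr7:45705247-45710203. The related factor Hlf had 56.7 to 64.7 CPM in young and 12.7, 11.6 and 7.11 CPM in vehicle lungs (log2 fold change −2.56 ± 0.31, adjusted p = 0.00219). Tef, the remaining PAR-domain factor, had 274 to 396 CPM in young and 118, 147 and 60.2 CPM in vehicle lungs (log2 fold change −1.59, adjusted p = 0.00795). For all 4 genes the groups were separated by a wide gap, and vehicle replicate 5 was the lowest library.

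Usp2, a clock-controlled deubiquitinase, fell from 96.7 to 129 CPM in young lungs to 38.2, 52.3 and 21.7 CPM in vehicle lungs (log2 fold change −1.55, adjusted p = 0.00640). Ciart, a repressor of the activator complex that overlaps C920021L13Rik on the other strand, had 11.3 to 21.3 CPM in young and 5.37, 2.57 and 2.99 CPM in vehicle lungs (log2 fold change −2.11, adjusted p = 0.00754). Both were kept in all leave-one-out fits. The period gene Per1 had 246, 120, 216 and 192 CPM in young and 75.1, 105 and 19.8 CPM in vehicle lungs, so its groups lay close together at their edges (log2 fold change −1.55, adjusted p = 0.0306), and it was called in 2 of 7 leave-one-out fits. Cry2, a cryptochrome that overlaps D930015M05Rik, had 52.0 to 68.4 CPM in young and 47.0, 27.0 and 19.5 CPM in vehicle lungs (log2 fold change −1.0, adjusted p = 0.0370), and was called in 1 of 7. The other 6 repressor and output genes did not pass the test. Their log2 fold changes were all below 0, from −1.95 for Nr1d2 (adjusted p = 0.125), whose counts were low, to −0.10 for Bhlhe40 (adjusted p = 0.873), with Per2 at −1.09 (adjusted p = 0.0994), Bhlhe41 at −1.09 and Per3 at −0.91.

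In the activator arm, Arntl had 0.49, 2.09, 1.09 and 0.52 CPM in young and 11.4, 8.58 and 8.23 CPM in vehicle lungs (log2 fold change 3.16 ± 0.57, adjusted p = 0.00443), and it was kept in all leave-one-out fits. Every vehicle library thus lay above every young library, although the young values rest on 7 counts in all. Nfil3, a repressor that opposes Dbp, Hlf and Tef at their binding sites, rose from 3.80 to 6.38 CPM in young lungs to 10.7, 11.6 and 22.1 CPM in vehicle lungs (log2 fold change 1.51, adjusted p = 0.0225, called in 3 of 7 leave-one-out fits). Npas2 was near the limit of detection, with 3 counts over the young and 20 over the vehicle libraries, a ratio of 7.43 with a 95% counting interval of 2.20 to 39.1, and was called in 1 of 7 (adjusted p = 0.0460). Clock (log2 fold change 0.57, adjusted p = 0.308), Cry1 (0.25) and Rora (−0.65) did not pass the test.

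**Figure D2:**
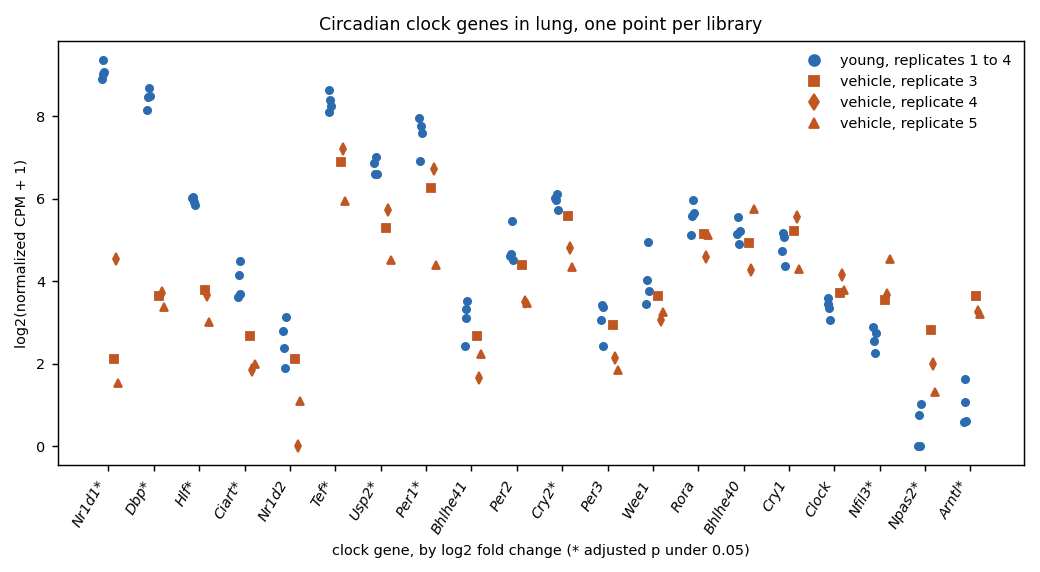
Level of 20 clock genes as log2(normalized CPM + 1) in each lung library, ordered by log2 fold change, with 4 young points and 3 vehicle points per gene and an asterisk for an adjusted p under 0.05. Young points lie far above vehicle points for Nr1d1 and Dbp, the groups meet or cross for the genes in the middle, and vehicle points lie above young points for Nfil3, Npas2 and Arntl.

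The bases just upstream of the start of the called clock genes were searched for the E-box CACGTG, which reads the same on both strands and is the sequence recognized by the BMAL1 complexes, and for AGGTCA on either strand, the core of the elements recognized by REV-ERB receptors. All 11 genes were matched to the RefSeq promoter table of GRCm38.p6. CACGTG lay within 250 bases upstream of the start in 3 of the 8 genes that fell, against 6.02% (1978 of 32851) of all promoters in the table, and in 0 of the 3 that rose. Those 3 are shown because they carry the E-box in plain view, with the motif in capitals and the bases given 5′ to 3′ on the strand of the gene. Ciart held 3 copies, whose first bases lay 116, 58 and 44 bases before the start (chr3:95882229-95882478, minus strand):
Ciart: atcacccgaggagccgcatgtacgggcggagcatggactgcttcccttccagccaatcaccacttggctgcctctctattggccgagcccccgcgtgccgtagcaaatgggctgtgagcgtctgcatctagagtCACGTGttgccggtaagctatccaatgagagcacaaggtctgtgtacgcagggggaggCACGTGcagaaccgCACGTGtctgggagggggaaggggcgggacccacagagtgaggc
Per1 held 1 copy, 166 bases before the start, and 1 AGGTCA read on the opposite strand, 137 bases before it, also in capitals (chr11:69098699-69098948, plus strand). The table's Per1 start lies 7 bases from the start in the deposited table:
Per1: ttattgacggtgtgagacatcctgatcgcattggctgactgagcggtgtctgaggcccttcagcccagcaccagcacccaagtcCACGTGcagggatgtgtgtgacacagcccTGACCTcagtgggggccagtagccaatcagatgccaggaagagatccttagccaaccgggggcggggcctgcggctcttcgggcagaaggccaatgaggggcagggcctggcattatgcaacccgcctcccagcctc
Tef held 1 copy, 138 bases before the start (chr15:81811164-81811413, plus strand):
Tef: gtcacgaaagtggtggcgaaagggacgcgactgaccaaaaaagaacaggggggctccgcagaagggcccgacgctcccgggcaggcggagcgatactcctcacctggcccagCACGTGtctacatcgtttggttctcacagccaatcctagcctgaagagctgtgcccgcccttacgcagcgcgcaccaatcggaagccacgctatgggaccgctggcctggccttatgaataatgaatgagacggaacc
AGGTCA was found in Per1 and Nfil3 among the 11 genes, against 14% (4607) of all promoters. A match in these windows is a description of the letters alone, and the absence of a match says only that they are not in this window.

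To ask whether the same genes differed in other organs, the clock genes were read in kidney and liver from the same table, fitted in the same way. In kidney 13 of 20 clock genes tested were called, against 13.3% of all genes tested there, and in liver 7 of 12, against 22.6%. Without liver vehicle replicate 4 the liver count was 4. Dbp had a log2 fold change of −3.93 in kidney and −5.00 in liver, Nr1d1 of −3.20 and −4.53, and Nfil3 of 2.08 and 2.88. Arntl rose in kidney (2.86). The direction in these genes was thus that of the lung. The differences themselves were tested as an interaction over the 30 libraries of the 3 tissues, in which 8.04% of 13107 genes were called for lung minus kidney and 11.4% for lung minus liver. Libraries of the 3 tissues carry the same replicate numbers. Whether same-numbered libraries come from the same mice is not given in the sources used here. The fit took all libraries as independent, and any sharing of mice between tissues was not modelled. The log2 fold change of Hlf differed by −2.12 between lung and kidney (lung minus kidney, adjusted p = 2.30e-04) and by −1.76 between lung and liver (adjusted p = 0.00322). Nr1d1 (−2.65, adjusted p = 0.0128), Cry1 (−1.99, adjusted p = 0.0129), Cry2 (−1.59, adjusted p = 0.00714) and Dbp (−1.06, adjusted p = 0.0430) also differed from kidney. Tef (−1.23, adjusted p = 0.0252) and Rora (−1.66, adjusted p = 0.00764) differed from liver. Cry1, which rose in kidney (2.26) and liver (1.73), had 19.8 to 34.8 CPM in young and 36.2, 45.9 and 18.7 CPM in vehicle lungs, where the groups overlapped.

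A clock score was made for each lung as the mean log2(CPM + 1) of 5 genes that peak with the activators (Arntl, Npas2, Clock, Nfil3 and Cry1) minus that of 8 repressor or output genes (Dbp, Nr1d1, Nr1d2, Per2, Per3, Tef, Hlf and Ciart). It was −3.53 to −3.15 in young, 0.21 to 0.64 in vehicle and 0.18 to 0.30 in ABT-737-treated lungs. Young and old lungs did not overlap, so the phase of the clock at collection and age cannot be told apart, in clock genes or in any other gene. With the score as a covariate, 0 genes were called by edgeR, and 274 had an unadjusted p under 0.05 against 3556 without it.

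Vehicle replicate 5 stood apart from the other vehicle lungs, and the number of calls that rested on it depended on the libraries in the fit. Without this library 502 genes were called in place of 1539, 385 higher and 117 lower, of which 488 were among the 1539. It was the highest vehicle library for 757 (77.7%) of the 974 genes called higher and the lowest for 465 (82.3%) of the 565 called lower. The median log2 difference from the young mean over the genes called higher was 1.44 in vehicle replicate 3, 1.3 in replicate 4 and 2.17 in replicate 5, and over the genes called lower it was −1.24, −1.08 and −2.0. These genes were called on these libraries, so the side of the young mean is set by their choice, and the medians describe how far out each library lay. Leaving out vehicle replicate 4 raised the count to 2426, and leaving out a young library lowered it to between 803 and 891. All of these fits held the 3 ABT-737-treated lungs. The fit of the 7 compared libraries alone called 2239 genes, and 1478 without vehicle replicate 5. Without any 1 young library it called 1357 to 1405.

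To find genes carried by a single mouse, those with at least 20 counts in a library and a normalized CPM at least 4 times that of each of the other 6 were listed. Vehicle replicate 5 had 66 such genes, 60 of them called. They were led by Saa3, an acute-phase protein made locally in inflamed lung, with 6130 CPM against 129 CPM in the next library, followed by Ly6c2, a monocyte and activated T cell surface protein, at 1640 against 396 CPM, and Thy1, a T cell and fibroblast surface protein, at 1170 against 208 CPM. All 3 genes nonetheless kept their call without that library. Vehicle replicate 3 had 4, of which Rps19, a ribosomal protein gene, was called with 788 CPM in that library and 35.9 to 48.5 CPM in the other 6 (adjusted p = 0.0228), and it was called in 2 of 7 leave-one-out fits. The others there were Alas2, the erythroid heme synthesis enzyme, Gzma, granzyme A, and Clec1b, a platelet receptor. Vehicle replicate 4 had Slc6a2, the noradrenaline transporter, at 594 against 127 CPM, and Nppa, the atrial natriuretic peptide gene, at 78.1 CPM. Young replicate 1 had Apoa1, Hpx and Apoa2, genes of liver-made plasma proteins, at 144, 137 and 86.8 CPM, and none of these was called. Young replicates 2, 3 and 4 had 0.

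**Figure D3:**
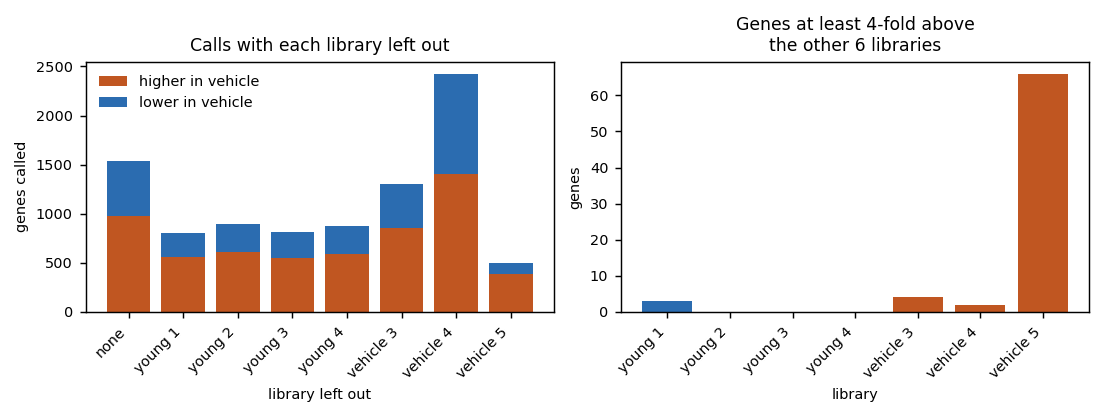
Left, the number of genes called in each fit, stacked by direction, with no library left out and with each of the 7 compared libraries left out. All of these fits held the 3 ABT-737-treated lungs. Right, the number of genes with at least 20 counts in a library and at least 4 times the normalized CPM of each of the other 6. Calls drop to 502 without vehicle replicate 5 and rise to 2426 without vehicle replicate 4, and 66 single-library genes belong to vehicle replicate 5.

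Genes of immune cells and immune signalling rose in large number. Over 18 lists, 302 genes were named and 246 passed the expression filter, and of these 154 rose and 5 fell (64.6% called, against 12.9% of all genes tested). Their median log2 fold change was 1.86, and 96 were kept in all leave-one-out fits. Without vehicle replicate 5, 108 rose and 1 fell, and without any 1 young library 121 to 127 rose. The filter keeps a gene that is expressed in either group, so a listed gene that reached it only through old lungs was bound to differ, and the counts are read with that limit. The summed level of the 246 genes was 33792.1 to 39382.8 CPM in young lungs and 64285.1, 81000.9 and 111160 CPM in vehicle replicates 3, 4 and 5, with no overlap.

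**Figure D4:**
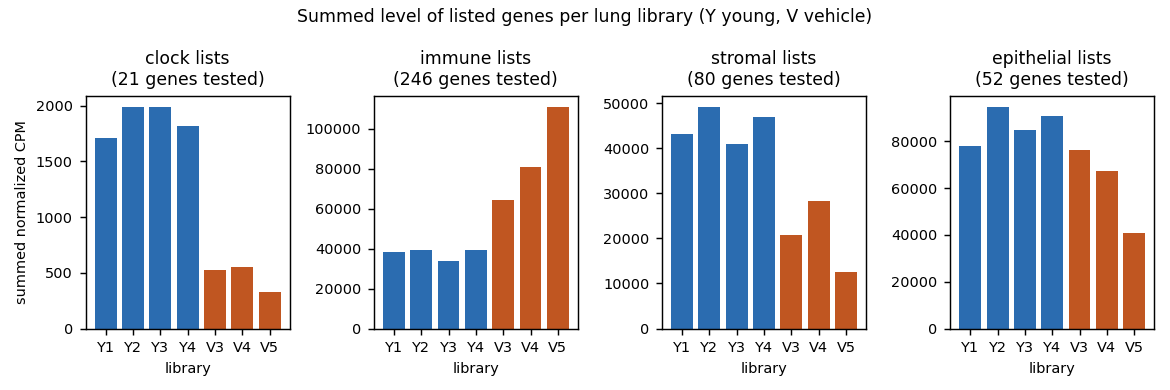
Summed normalized CPM of the tested members of the clock, immune, stromal and epithelial lists in each of the 7 lung libraries, each bar 1 library and each panel on its own axis from 0. The clock, stromal and epithelial sums are lower and the immune sum higher in all 3 vehicle lungs than in any young lung, and the lowest epithelial sum, 40702.3 CPM, is that of vehicle replicate 5.

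T cell genes rose together. All 22 members tested, of 24 listed, rose (median log2 fold change 3.45), 17 were kept in all leave-one-out fits, and 17 were called without vehicle replicate 5, with a median of 2.57. Cd3e, a chain of the T cell receptor complex, had 6.87, 6.26, 3.80 and 10.9 CPM in young and 53.7, 73.3 and 190 CPM in vehicle lungs (log2 fold change 3.91 ± 0.49, adjusted p = 0.00219). Lat, the adaptor that links that receptor to its signalling and whose gene overlaps Mir7058, had 13.7, 16.7, 17.9 and 25.0 CPM in young and 83.2, 136 and 325 CPM in vehicle lungs (log2 fold change 3.31 ± 0.41, adjusted p = 0.00219). In both, the lowest old lung lay several times above the highest young lung. The coreceptor genes Cd8a (log2 fold change 4.26), Cd8b1 (3.77) and Cd4 (2.39) rose as well. Pdcd1, the gene of the inhibitory receptor PD-1, had 0.49, 0.695, 0 and 1.04 CPM in young and 21.5, 26.2 and 32.2 CPM in vehicle lungs (log2 fold change 5.43 ± 0.73, adjusted p = 0.00259), and here the 3 old mice were close to each other. The inhibitory receptor gene Lag3 rose by a log2 of 3.60. Themis, a T cell development gene, had 3 counts over the young libraries and 22, 17 and 114 counts in vehicle replicates 3, 4 and 5, 153 in all. The ratio was 56.9 with a 95% counting interval of 19.1 to 279, which leaves out this spread between mice.

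Cytotoxic lymphocyte and natural killer genes rose in 13 of 16 tested members of 20 listed (median log2 fold change 3.60), and in 7 without vehicle replicate 5 (median 2.04). Their summed level was 254 to 347 CPM in young and 2506, 3066 and 10865 CPM in vehicle lungs. Ccl5, a chemokine stored in the granules of memory CD8+ T and natural killer cells, had 155, 145, 207 and 215 CPM in young and 1712, 2601 and 7619 CPM in vehicle lungs (log2 fold change 4.46, adjusted p = 0.00259). Nkg7, a cytotoxic granule membrane protein, had 25.7 to 43.4 CPM in young and 346, 220 and 1347 CPM in vehicle lungs (log2 fold change 4.19). Granzyme B, encoded by Gzmb, had 1.96 to 5.43 CPM in young and 79.1, 14.6 and 180 CPM in vehicle lungs (log2 fold change 4.82, adjusted p = 0.00443), so the vehicle mice differed more than 10-fold among themselves. Eomes, a transcription factor of cytotoxic and memory cells, rose by a log2 of 5.15 and Ifng, interferon-γ, by 5.02, both kept in all leave-one-out fits. Gzma, by contrast, had 80.5 CPM in vehicle replicate 3 and 9.73 and 12.9 CPM in the other 2 vehicle lungs, within or near the young range of 6.38 to 17.9 CPM, and did not pass the test (adjusted p = 0.0942). Prf1, also on this list, was at the levels given above.

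B cell genes rose in 9 of 14 tested members of 16 listed, in 5 without vehicle replicate 5, and plasma cell genes in 8 of 12. Mzb1, a chaperone of antibody-secreting cells, had 19.6, 15.3, 21.7 and 18.2 CPM in young and 325, 413 and 198 CPM in vehicle lungs (log2 fold change 4.05 ± 0.49, adjusted p = 0.00219). Jchain, the joining chain of polymeric antibodies, had 0.695 to 1.09 CPM in young and 44.3, 23.2 and 24.7 CPM in vehicle lungs (log2 fold change 4.88). The summed level of the plasma cell genes was 980 to 1067 CPM in young and 1612, 1898 and 1215 CPM in vehicle lungs, so vehicle replicate 5 was the lowest old lung, and 7 of the 12 were called without it. Cd22, an inhibitory B cell receptor, had 19.5 to 28.4 CPM in young and 69.8, 184 and 152 CPM in vehicle lungs (log2 fold change 2.57, adjusted p = 0.00356). Fcrl5, a receptor of mature B and plasma cells, had no count in the 4 young lungs and 6.04, 8.58 and 9.35 CPM in vehicle lungs, which is at least 20.1-fold higher, with the young group set at 3 counts.

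Monocyte and interstitial macrophage genes rose in 12 of 16 tested members (median log2 fold change 2.33), and in 10 without vehicle replicate 5. The complement C1q chain gene C1qa had 115 to 177 CPM in young and 665, 716 and 1741 CPM in vehicle lungs (log2 fold change 2.84, adjusted p = 0.00316), and C1qb (2.31) and C1qc (3.44) rose with it. Ly6c2 had 25.0 to 55.1 CPM in young and 396, 371 and 1640 CPM in vehicle lungs (log2 fold change 4.27, adjusted p = 0.00259). Fcgr1, a high-affinity antibody receptor (log2 fold change 2.95), Aif1 (3.22) and Ms4a7 (4.69) were kept in all leave-one-out fits. Pf4, which is also a platelet gene, rose with levels that overlapped between the groups. Alveolar macrophage genes rose in 4 of 15 tested members, and in 1 without vehicle replicate 5 or without young replicate 1, 2 or 4. Of these 4, Lpl, lipoprotein lipase, had 25.5 to 37.4 CPM in young and 89.2, 112 and 62.8 CPM in vehicle lungs (log2 fold change 1.46, adjusted p = 0.00583), whereas Marco, a scavenger receptor, was not called (log2 fold change 2.10, adjusted p = 0.11).

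Dendritic cell genes were divided. Of 11 tested, 4 rose and 1 fell, but 1 rose without vehicle replicate 5 or without young replicate 2 or 3. Batf3, a factor needed for cross-presenting dendritic cells, had 6.26 to 12.8 CPM in young and 37.6, 42.9 and 43.4 CPM in vehicle lungs (log2 fold change 2.07, adjusted p = 0.00411), and Clec9a, Flt3 and Bst2 also rose. Cd209a, a lectin of monocyte-derived dendritic cells, fell from 8.34 to 12 CPM to 4.02, 1.72 and 0.374 CPM (log2 fold change −2.42, adjusted p = 0.0299), and this call was held in 1 of 7 leave-one-out fits. Of 8 neutrophil genes tested, of 15 listed, 3 rose, among them S100a8 (4.34 to 7.80 CPM in young and 26.8, 19.7 and 14.6 CPM in vehicle lungs, log2 fold change 1.66). Of 4 genes of mast cells, basophils and eosinophils that were tested, of 13 listed, Prg2, the eosinophil major basic protein gene, rose from at most 1.63 CPM to 16.1, 21.0 and 20.9 CPM (log2 fold change 4.23, adjusted p = 0.00306).

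Antigen presentation genes rose in both the class I and the class II list, though the abundant classical class II genes did not pass the test. Of 17 tested genes of MHC class I and the immunoproteasome, 12 rose (median log2 fold change 1.88), 10 of them kept in all leave-one-out fits. B2m, the invariant light chain of class I molecules, had 1415, 1511, 1405 and 1464 CPM in young and 5175, 4611 and 6266 CPM in vehicle lungs (log2 fold change 1.88, adjusted p = 0.00316). H2-T22, a class I-like molecule recognized by some γδ T cells, had 58.9 to 82.7 CPM in young and 301, 377 and 447 CPM in vehicle lungs (log2 fold change 2.32 ± 0.30, adjusted p = 0.00219), with its reads possibly shared with the overlapping H2-T9 and A930015D03Rik. Young mice were nearly alike in B2m, and old mice were each more than 3 times higher. The peptide transporter genes Tap1 (log2 fold change 2.12) and Tap2 (1.49) and the immunoproteasome genes Psmb8 (2.0) and Psmb9 (2.77) also rose. Of 10 tested class II genes, 6 rose, led by H2-Eb2 (3.09), with Ciita, the master regulator of class II genes, at 31.4 to 53.5 CPM in young and 129, 154 and 157 CPM in vehicle lungs (log2 fold change 1.76, adjusted p = 0.00917). H2-Eb2 had 1.09 to 2.6 CPM in young lungs. H2-Aa (log2 fold change 0.69, adjusted p = 0.232), H2-Ab1 (0.77, adjusted p = 0.234) and H2-Eb1 (0.90, adjusted p = 0.137), which encode the chains of the classical class II molecules, were not called, and H2-Ab1 overlapped between the groups.

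Genes known to respond to interferon rose in large number. Of 18 members of the interferon-γ list, which holds guanylate-binding proteins and immunity-related GTPases, 16 rose (median log2 fold change 3.05), and 13 did so without vehicle replicate 5. Igtp, an immunity-related GTPase, had 40.2 to 71.1 CPM in young and 673, 217 and 555 CPM in vehicle lungs (log2 fold change 3.18, adjusted p = 0.00366). Vehicle replicate 4 was the lowest old lung for this family, with a summed level of 1258 CPM against 3664 and 3848 CPM in replicates 3 and 5 and 550 to 637 CPM in young lungs. Of 24 tested genes of the type I interferon list, 17 rose (median 1.74), and 11 without vehicle replicate 5. Irf7, a regulator of type I interferon genes, had 27.1 to 44.6 CPM in young and 133, 185 and 181 CPM in vehicle lungs (log2 fold change 2.24, adjusted p = 0.00259). Rsad2, an antiviral enzyme, had 2.78 to 6.24 CPM in young and 41.6, 45 and 23.9 CPM in vehicle lungs (log2 fold change 3.10, adjusted p = 0.00257). For the type I list the 3 old mice were close, with sums of 1731, 1739 and 1667 CPM against 534 to 683 CPM in young mice.

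Chemokines were among the genes with the largest fold changes. Of 25 tested members of 30 listed, 14 rose and 3 fell (median log2 fold change 3.08), and without vehicle replicate 5, 9 rose and 1 fell (median 1.83). Cxcl9, an interferon-γ-induced attractant of CXCR3-bearing T cells, had 1.96, 3.48, 2.17 and 2.08 CPM in young and 231, 273 and 996 CPM in vehicle lungs (log2 fold change 7.68 ± 1.10, adjusted p = 0.00259). Its partner Cxcl10 had 1.09 to 2.09 CPM in young and 93.2, 14.6 and 301 CPM in vehicle lungs (log2 fold change 6.43, adjusted p = 0.00550), and it overlaps Art3 on the other strand. Ccl8, a monocyte attractant, had 6.87, 4.17, 2.17 and 2.60 CPM in young and 185, 93.9 and 619 CPM in vehicle lungs (log2 fold change 6.21 ± 0.93, adjusted p = 0.00259). For these 3 genes no old lung came near the young range. Ccl2, another monocyte attractant, had 1 count over the young libraries and 24, 5 and 175 counts in vehicle replicates 3, 4 and 5, 204 in all. The ratio was 227 with a 95% counting interval of 40.4 to 9028, which leaves out this spread between mice. Cxcl13, which draws B cells into lymphoid follicles, had 2.08 to 5.40 CPM in young and 47.0, 105 and 175 CPM in vehicle lungs (log2 fold change 4.80, adjusted p = 0.00306).

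The 3 chemokine genes that fell are expressed mainly by structural cells. Cxcl14 had 349, 427, 452 and 327 CPM in young and 121, 93.1 and 84.2 CPM in vehicle lungs (log2 fold change −1.97 ± 0.30, adjusted p = 0.00259), and was kept in all leave-one-out fits. Cxcl15, made by lung epithelium, had 1452 to 1749 CPM in young and 679, 791 and 418 CPM in vehicle lungs (log2 fold change −1.38, adjusted p = 0.0239). Cx3cl1, the membrane-bound ligand of CX3CR1, had 34.8 to 60.3 CPM in young and 28.2, 22.7 and 26.2 CPM in vehicle lungs (log2 fold change −0.86, adjusted p = 0.0399). The last 2 were each called in 1 of 7 leave-one-out fits.

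Among interleukins and TNF family genes, 7 of 16 tested members of 26 listed rose, and 3 without vehicle replicate 5. Il1b, interleukin-1β, had 5.97 to 15.3 CPM in young and 61.7, 53.2 and 162 CPM in vehicle lungs (log2 fold change 2.97, adjusted p = 0.00398). Ltb, the lymphotoxin chain that organizes lymphoid tissue, had 18.5 to 43.7 CPM in young and 127, 143 and 409 CPM in vehicle lungs (log2 fold change 2.93, adjusted p = 0.00432). Tnf (log2 fold change 3.63) also rose. The cytokine genes Il6 and Il10 did not reach the filter, with 0 counts of Il6 in young and 2 in vehicle libraries, and with 1 and 18 counts of Il10. Complement genes rose in 8 of 17 tested members, with Cfb, factor B of the alternative pathway, at 36.3 to 81.4 CPM in young and 241, 342 and 1041 CPM in vehicle lungs (log2 fold change 3.35, adjusted p = 0.00259). Toll-like receptor genes and their adaptors rose in 5 of 9 tested members of 16 listed, and in 1 without vehicle replicate 5. Of 8 tested genes of lymphoid aggregates and high endothelial venules, 4 rose, Cxcl13, Ltb and Cxcr5 among them, and Chst4, a sulfotransferase of such venules, fell (log2 fold change −1.48, adjusted p = 0.0197). Slpi, the secretory leukocyte protease inhibitor, overlaps Mir7678, is on no list and was among the smallest adjusted p-values. It had 61.8, 71.6, 59.7 and 72.3 CPM in young and 520, 1458 and 350 CPM in vehicle lungs (log2 fold change 3.55 ± 0.46, adjusted p = 0.00219), and vehicle replicate 4 was its highest library.

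Genes of cell division rose in 19 of 29 tested members (65.5%, against 8.15% of all genes tested called higher). Their median log2 fold change was 1.97, and 10 rose without vehicle replicate 5. Top2a, the topoisomerase of dividing cells, had 4.41 to 7.65 CPM in young and 39.6, 36.9 and 57.6 CPM in vehicle lungs (log2 fold change 2.82, adjusted p = 0.00600). Birc5 (log2 fold change 2.77), Ube2c (2.75) and Plk1 (2.47), which act in mitosis, were kept in all leave-one-out fits. The summed level of the list was 285 to 353 CPM in young and 634 to 847 CPM in vehicle lungs, a gap wider than the spread within either group.

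Regulators of senescence and the senescence-associated secretory phenotype (SASP) were examined because the study concerns senescent cells. Of 19 tested senescence regulators, 5 rose (26.3%, against 8.15% of all genes tested called higher), and the median log2 fold change was 0.17. Cdkn1a, which encodes the cell cycle inhibitor p21, had 369, 478, 346 and 312 CPM in young and 496, 1509 and 254 CPM in vehicle lungs. The groups overlapped, with vehicle replicate 4 the highest and replicate 5 the lowest of the 7 libraries (log2 fold change 1.0 ± 0.50, adjusted p = 0.200). Cdkn2b, encoding p15 and overlapping Gm12610, had 9.81 to 19.5 CPM in young and 35.5, 15 and 19.8 CPM in vehicle lungs (log2 fold change 0.61, adjusted p = 0.303). Cdkn2a, encoding p16 and p19, did not reach the filter, with 0, 0, 1 and 0 counts in young and 4, 9 and 18 counts in vehicle lungs, which is higher in each old lung but was not tested. Gpnmb, a membrane protein of senescent cells and macrophages, had 14.7 to 18.8 CPM in young and 51.6, 87.5 and 187 CPM in vehicle lungs (log2 fold change 2.67, adjusted p = 0.00259), and was the only member of this list kept in all leave-one-out fits. Cdkn2d, Lmnb1, Gdf15 and Bcl2 also rose, and Bcl2 had 432 CPM in vehicle replicate 5 against 30.4 to 68.4 CPM in the other 6. Lmnb1, a lamin whose loss marks senescent cells, rose (log2 fold change 1.32, adjusted p = 0.0108).

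Of 42 tested SASP genes, of 58 listed, 16 rose and 2 fell (42.9% called, against 12.9% of all genes tested). Their median log2 fold change was 0.40, and without vehicle replicate 5, 10 rose and 1 fell. Of the 18 called, the chemokine list also holds Ccl2, Ccl3, Ccl4, Ccl5, Ccl7, Ccl8, Ccl20, Cxcl5, Cxcl10, Cxcl12 and Cxcl15. Outside chemokines, Spp1, osteopontin, had 23.4 to 41.8 CPM in young and 192, 89.2 and 213 CPM in vehicle lungs (log2 fold change 2.36, adjusted p = 0.00259), and Vcam1, an adhesion molecule for leukocytes, had 13.0 to 25.0 CPM in young and 74.5, 79.8 and 129 CPM in vehicle lungs (log2 fold change 2.24, adjusted p = 0.00414). Igfbp3, a binding protein of insulin-like growth factors, fell from 85.8 to 113 CPM to 33.5, 30.9 and 13.8 CPM (log2 fold change −1.87, adjusted p = 0.00361). Timp1, an inhibitor of matrix metalloproteinases, did not pass the test (0.56, adjusted p = 0.31).

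**Figure D5:**
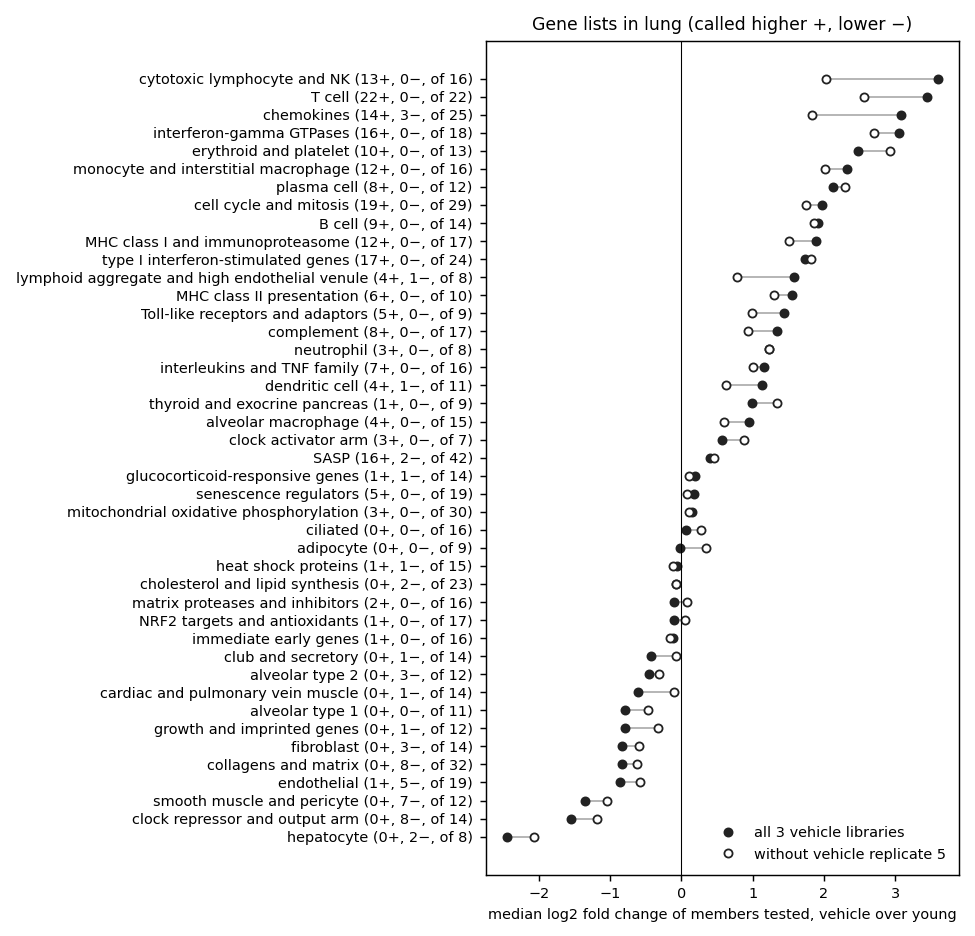
Median log2 fold change of the tested members of each gene list, vehicle over young, with all 3 vehicle libraries (filled) and without vehicle replicate 5 (open), and the number called higher and lower of those tested beside each name. Lymphocyte, chemokine and interferon lists lie at the top, muscle, matrix and endothelial lists below 0, and the cytotoxic lymphocyte median moves from 3.60 to 2.04 without vehicle replicate 5.

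Genes of the stroma and vessels were lower in old vehicle-treated lung. Over 5 lists, 80 of 86 genes were tested, and 23 fell and 1 rose, against 4.73% lower and 8.15% higher among all genes tested, with a median log2 fold change of −0.86. Their summed level was 40892 to 49227.2 CPM in young lungs and 20770.6, 28230 and 12560.9 CPM in vehicle replicates 3, 4 and 5. Without vehicle replicate 5, 8 were called lower, without vehicle replicate 4, 33, and without any 1 young library 9 to 15, and 8 called genes of these lists were kept in all leave-one-out fits. The immune sums given above rose in the same libraries in which the stromal sums were lower, and the part of that shift in the stromal fall was not tested.

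Smooth muscle and pericyte genes fell in 7 of 12 members, the highest share among these lists (median log2 fold change −1.36), and in 5 without vehicle replicate 5 (median −1.05). Hhip, which binds and restrains hedgehog ligands, had 162, 137, 122 and 174 CPM in young and 17.4, 32.6 and 7.48 CPM in vehicle lungs (log2 fold change −2.96 ± 0.46, adjusted p = 0.00284). Pdgfrb, the receptor by which pericytes answer platelet-derived growth factor, had 347, 153, 154 and 275 CPM in young and 22.8, 47.6 and 30.7 CPM in vehicle lungs (log2 fold change −2.77 ± 0.45, adjusted p = 0.00306). In both genes the lowest young lung was more than 3 times the highest old lung, and vehicle replicate 5 was not the lowest for Pdgfrb. The pericyte proteoglycan gene Cspg4 (log2 fold change −1.99), the mural receptor gene Notch3 (−1.49) and Cox4i2 (−1.90), a lung form of a cytochrome oxidase subunit, were kept in all leave-one-out fits. Acta2, smooth muscle actin, was not called (−0.78, adjusted p = 0.20).

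Fibroblast genes fell in 3 of 14 tested members. Npnt, nephronectin of the alveolar basement membrane, had 967, 1216, 738 and 1169 CPM in young and 198, 265 and 88.7 CPM in vehicle lungs (log2 fold change −2.47, adjusted p = 0.00312). Inmt, a methyltransferase abundant in alveolar fibroblasts, had 7201 to 8958 CPM in young and 2426, 3038 and 778 CPM in vehicle lungs (log2 fold change −1.92, adjusted p = 0.0170). Pdgfra (−0.13) and Tcf21 (0.07), which mark the same cells, did not pass the test. Collagen and matrix genes fell in 8 of 32 tested members and rose in 0, with 1 called lower without vehicle replicate 5 and 0 kept in all leave-one-out fits. Col1a1 had 179 to 247 CPM in young and 121, 61.3 and 110 CPM in vehicle lungs (log2 fold change −1.15, adjusted p = 0.0154), and Col5a1 had 58.1 to 84.2 CPM in young and 26.8, 32.2 and 16.8 CPM in vehicle lungs (log2 fold change −1.58, adjusted p = 0.0120). Fn1, fibronectin, was not called (0.02, adjusted p = 0.98). Lama4, a laminin chain of vessel basement membranes outside this list, had 127 to 180 CPM in young and 48.3, 58.3 and 31.8 CPM in vehicle lungs (log2 fold change −1.75 ± 0.27, adjusted p = 0.00284).

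Of 19 tested endothelial genes, 5 fell and Vcam1 rose. Aplnr, the apelin receptor, had 7.28 to 11.3 CPM in young and 2.68, 3.43 and 0.748 CPM in vehicle lungs (log2 fold change −2.02, adjusted p = 0.0180). Sox17, Tmem100, Esam and Ednrb also fell, and none of the 5 was called without vehicle replicate 5 or without young replicate 1. Pecam1 (−0.69, adjusted p = 0.21), Cdh5 (−1.04, adjusted p = 0.12) and Kdr (−1.59, adjusted p = 0.053) did not pass the test. Mesothelial genes gave 0 calls among 6 tested.

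Few epithelial genes were called, although most lay lower in old lung. Over 4 lists, 4 of 52 genes were called, all lower, and 1 without vehicle replicate 5. That share was 7.69%, against 4.73% of all genes tested called lower and 12.9% called in either direction. The log2 fold change was below 0 for 12 of 12 type 2 genes and for 10 of 11 type 1 genes tested. It was below 0 for 10 of 14 club and secretory genes, but for only 7 of 16 ciliated genes (median 0.06). Type 1 sums were 7499 to 7905 CPM in young and 6819, 4622 and 2524 CPM in vehicle lungs. The type 2 cell genes Sftpc (log2 fold change −0.19, adjusted p = 0.77), Sftpb (−0.45) and Sftpa1 (−0.26), which encode surfactant proteins, did not pass the test, and neither did Scgb1a1 of club cells (−0.30), Ager of type 1 cells (−0.79, adjusted p = 0.21) or Foxj1 of ciliated cells (0.22). Lyz1, a lysozyme of type 2 cells, had 823 to 1375 CPM in young and 295, 354 and 187 CPM in vehicle lungs (log2 fold change −1.97, adjusted p = 0.00416), and was the epithelial gene kept in all leave-one-out fits. The paralog Lyz2 is close in sequence, so reads may be split between them. Lamp3 (−1.55, adjusted p = 0.0234) and Etv5 (−1.31, adjusted p = 0.0279) of type 2 cells and Muc5b (−1.42, adjusted p = 0.0125), an airway mucin, also fell. Summed epithelial levels were 78161.5 to 94812.2 CPM in young and 76240, 67210.4 and 40702.3 CPM in vehicle lungs, so that all 3 vehicle lungs lay below the lowest young lung, replicate 5 farthest. For alveolar type 1 and ciliated cells edgeR called 0 of 11 and 0 of 16 genes.

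Genes of red cells and platelets rose in old lungs and varied widely between mice. Of 13 tested, 10 rose (76.9%, against 8.15% of all genes tested called higher), but 3 did without young replicate 1 and 2 without vehicle replicate 3. The summed level was 1887 to 3667 CPM in young and 25481, 10620 and 3613 CPM in vehicle replicates 3, 4 and 5. The β-globin gene Hbb-bs, whose counts are nearly those of Hbb-b1 and cannot be separated from it, had 254 to 592 CPM in young and 5692, 1757 and 922 CPM in vehicle lungs (log2 fold change 2.85, adjusted p = 0.0243). The order of the vehicle lungs was the opposite of that of the immune sums, with the most globin in replicate 3 and the least in replicate 5. Gp9, a platelet receptor chain, had 4.88 to 8.83 CPM in young and 48.3, 50.2 and 8.23 CPM in vehicle lungs, so replicate 5 lay within the young range.

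Genes outside the lists among the largest changes were of varied kind. C130026I21Rik had 3 counts over the young and 181 over the vehicle libraries, a ratio of 67.3 with a 95% counting interval of 22.7 to 329. Lipc, hepatic lipase, and Apol11b, an apolipoprotein L gene, had no count in young lungs and 4.70 to 6.00 and 6.86 to 10.8 CPM in vehicle lungs, at least 13.8- and 22.7-fold higher with the young group set at 3 counts. Phf11b, a PHD finger protein gene, had 18.7 to 26.0 CPM in young and 93.9, 142 and 151 CPM in vehicle lungs (log2 fold change 2.57 ± 0.32, adjusted p = 0.00219). Ubd, a ubiquitin-like modifier on the interferon-γ list, had at most 1.39 CPM in young and 43.6, 20.2 and 183 CPM in vehicle lungs (log2 fold change 7.06, adjusted p = 0.00414). These changes were large in every old lung.

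Among the genes that fell most, Nr2f1, an orphan nuclear receptor gene that overlaps A830082K12Rik, had 45 to 66.0 CPM in young and 8.72, 15.4 and 8.60 CPM in vehicle lungs (log2 fold change −2.40 ± 0.36, adjusted p = 0.00259). Piezo2, a mechanically gated ion channel, had 21.1 to 42.4 CPM in young and 6.04, 6.86 and 3.37 CPM in vehicle lungs (log2 fold change −2.56, adjusted p = 0.00387). Vtn, vitronectin, had 50.8 to 100 CPM in young and 19.5, 12 and 2.24 CPM in vehicle lungs (log2 fold change −2.69, adjusted p = 0.00560). No old lung reached the lowest young lung for these 3. Hunk (log2 fold change −2.79), Capn6 (−3.29), Rprml (−2.93) and the noncoding AW549542 (−2.76) also fell. Adcy8, an adenylyl cyclase, had 56 counts over the young and 2 over the vehicle libraries, 25.1-fold lower with a 95% counting interval of 6.63 to 212.

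Lists of stress and metabolism were called at shares of 5.88% to 14.3%, against 12.9% of all genes tested. Of 14 tested glucocorticoid-responsive genes, Sgk1, a kinase induced by corticosteroids, rose from 20.1 to 36.9 CPM to 72.4, 57.9 and 116 CPM (log2 fold change 1.65, adjusted p = 0.00410), while Klf9, which the clock also drives, fell (−1.49, adjusted p = 0.0294), a call held in 1 of 7 leave-one-out fits. Without vehicle replicate 4, 5 genes of this list were called lower, and without any other compared library 0 were. Of 15 heat shock genes, Hspa1a fell from 32.2 to 65.2 CPM to 20.1, 7.72 and 7.48 CPM (log2 fold change −2.12, adjusted p = 0.00730) and Hsp90b1, the endoplasmic reticulum chaperone, rose (1.52, adjusted p = 0.0162). Of 16 tested immediate early genes, Atf3 alone was called (log2 fold change 1.69, adjusted p = 0.0113). Of 30 genes of oxidative phosphorylation 3 rose, of 23 of cholesterol and lipid synthesis 2 fell, and of 17 of the NRF2 response Hmox1 rose, and for each of these 3 lists 0 were called without vehicle replicate 5. The lipid synthesis and NRF2 lists also had 0 called without any 1 young library. Without vehicle replicate 4, 7 genes of oxidative phosphorylation were called higher. The medians of these 6 lists lay between −0.12 and 0.20, near the 0.04 of all genes tested.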

How the data were processed

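Lungs of 4 young and 3 vehicle-treated mice were placed in groups by title, age and treatment labels. The authors deposited raw counts per gene, 1 RefSeq transcript each, in a table of kidney, liver and lung. The submitters' processing notes name HISAT 0.1.5, HOMER, bcl2fastq and mm10, and the use of strand and of molecular identifiers is not given in the sources used here, so intervals cover counting error only. Symbols were read from the table's annotation column, and 24537 genes were present. The skin table was not used.

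In R 4.3.3 with edgeR 4.0.16, the 10 lung libraries (4 young, 3 vehicle and 3 ABT-737) were filtered by expression, which left 11949 genes, scaled by TMM and fitted by quasi-likelihood, with the contrast vehicle minus young. Genes with a Benjamini-Hochberg adjusted p under 0.05 were called. The biological coefficient of variation was 31.7%. Total counts per library were 1379296 to 2600092 in the 7 compared libraries, and between 1046508 and 1988877 with ABT-737. The code was tested on simulated data.

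The members and the 50 gene lists were chosen with earlier results of these data known. Of 809 listed genes, 807 were in the table, 2 of them under an older name. Beyond lists, the named genes were the 12 that rose and the 12 that fell most among calls that did not overlap and held with each compared library left out, the 6 and 6 with the smallest adjusted p, the clock genes, Prf1, Cdkn1a, Cdkn2a and Cdkn2b, and the 3 most abundant genes carried by each single library. Clec1b and the cytokine genes Il6 and Il10 were added after their values were seen, as were genes of the lists named because they did not pass the test. Among genes tested, 63 shared identical counts with another gene. Groups of genes with up to 3 counts were set at a floor of 3 counts for a bound, or given as a ratio with a 95% counting interval. Alternatives were DESeq2 1.42.0, its size factors in edgeR, 2 other filters, only the 7 compared libraries, a replicate block, robust estimation, a clock score as covariate, and each library left out. A few list members are not reported here by name.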

Additional observations from a re-analysis of the deposited data

Results flagged for a closer look

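In young lung, 9 genes had a library that stood apart from the other 3 by Dixon's test at 95%, a mark that chance gives to about 1 in 20 groups. The value that stood apart was the highest for C130026I21Rik (1.47 CPM), Cxcl9 (3.48 CPM), Saa3 (16.0 CPM), Ccl2 (0.52 CPM), Apoa1 (144 CPM), Apoa2 (86.8 CPM), Hpx (137 CPM) and Per2 (42.9 CPM), and the lowest for Slc6a2 (103 CPM). For C130026I21Rik, Cxcl9, Saa3 and Ccl2 that value still lay below every vehicle library. In C130026I21Rik and Ccl2 the other 3 young libraries held 0 counts, so any count at all would have been marked. That of Ccl2 was 1 count. The 3 plasma protein genes stood apart in the same library, young replicate 1. They had been named because that library lay at least 4 times above each other library, so their mark followed from the choice.

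The age difference of clock genes differed between tissues when the difference itself was tested, with the libraries of the 3 tissues taken as independent. In lung minus kidney the log2 values were −1.06 for Dbp, −1.99 for Cry1, −1.59 for Cry2, −2.65 for Nr1d1 and −2.12 for Hlf. In lung minus liver they were −1.66 for Rora, −1.23 for Tef and −1.76 for Hlf. Nr1d1 and Hlf fell more in lung than in kidney, while Cry1 rose in kidney and liver and did not pass the test in lung.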

How the results depend on the processing

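The count of 1539 called genes was 1009 when each compared library had to hold at least 10 counts, and it ranged from 502 (without vehicle replicate 5) to 2426 (without vehicle replicate 4) when 1 library was left out. It stayed within 1.5 times with DESeq2 (1990), DESeq2's size factors (1546), robust estimation (1542), no filter (1860) and the 7 compared libraries alone (2239). That last fit gave 1357 to 3873 when a library was also left out, an alternative chosen after seeing the data. Its count was highest without vehicle replicate 4 and was 1478 without vehicle replicate 5. In liver, clock genes called ranged from 4 to 8 with a library left out. The causes were not tested.

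With the replicate number as a block, 333 genes were called, 243 higher and 90 lower, and 326 of them were among the 1539. The numbers 3 and 4 occur in both groups, and same-numbered lungs correlated in their deviations at 0.0637 and 0.106. Differently numbered pairs lay between −0.0725 and 0.0514, so the same-numbered pairs were the highest, though all values were small. Whether same-numbered lungs share more than a number was not tested.

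With the clock score as covariate 0 genes were called by edgeR (274 at an unadjusted p under 0.05), and the score and age cannot be told apart. Named genes reversed only there, among the alternatives named in the methods, all at an adjusted p of 0.999. The score does not overlap between young and old lungs, and it holds Ciart and Nfil3 itself. The reversed signs and their sizes are therefore not read. The fitted log2 values were −3.97 for Lat, −2.78 for Cd3e, −2.76 for Ly6c2, −5.82 for Cxcl9, −4.92 for Ccl8, 3.54 for Hhip, 2.85 for Lama4, 1.78 for Pdgfrb, 7.36 for Hunk, −5.03 for Themis, −9.17 for Thy1, 1.60 for AW549542, −9.66 for Ubd, −29.01 for Saa3, 3.42 for Rprml, −8.80 for Ccl2, 4.23 for Adcy8, −5.58 for Cxcl10, 8.23 for Vtn, 1.32 for Usp2, 3.88 for Ciart, −5.41 for Nfil3, 10.32 for Per1 and 3.90 for Cry2. Of 1107 values of 64 named genes under those alternatives, 1004 kept their direction and side of the threshold, 58 lost the call, 21 gained it and 24 reversed.

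With 3 vehicle mice and totals of 1379296 to 2600092 counts, low genes such as Npas2 and Cdkn2a rest on few counts, and a missed call does not show that levels were alike.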

Other observations

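Genes of tissues that border or contaminate the lung sample were read as well. The share called was 7.14% for cardiac and pulmonary vein muscle, 25% for hepatocyte and 11.1% for thyroid and exocrine pancreas genes, against 12.9% of all genes tested. Of 14 tested genes of cardiac and pulmonary vein muscle, Myh7, a slow myosin heavy chain, fell from 15.6 to 20.2 CPM in young to 6.71, 6.00 and 1.87 CPM in vehicle lungs (log2 fold change −1.85, adjusted p = 0.0228), and the summed level of the list was 1140 to 2076 CPM in young and 878, 1237 and 93 CPM in vehicle replicates 3, 4 and 5. Of 8 tested hepatocyte genes, of 14 listed, Ttr and Ahsg, which encode plasma proteins, fell with levels that overlapped, and the summed level was 485 to 1071 CPM in young and 414 to 574 CPM in vehicle lungs. Neither was called without vehicle replicate 3 or 5, or without young replicate 1 or 4. Of 9 tested thyroid and exocrine pancreas genes Prss2, a trypsinogen gene with close paralogs, rose (log2 fold change 1.22, adjusted p = 0.0451), and its levels overlapped. For adipocyte, skeletal muscle and sex-linked genes edgeR called 0 of 9, 0 of 4 and 0 of 3 tested. Of 10 genes of thymus and immature lymphocytes, 2 were tested and both, Cd8b1 and Themis, rose.

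Matrix proteases and inhibitors were called at 12.5% and growth and imprinted genes at 8.33%, against 12.9% of all genes tested. Of 16 tested matrix proteases and inhibitors, Ctss, the cathepsin that trims the invariant chain in antigen-presenting cells, rose from 110 to 147 CPM in young to 777, 331 and 2225 CPM in vehicle lungs (log2 fold change 3.15, adjusted p = 0.00687), and Mmp14 rose as well (1.3, adjusted p = 0.0497). Of 12 tested growth and imprinted genes, of 18 listed, the noncoding Meg3 fell from 11.8 to 21.7 CPM to 4.02, 6.00 and 2.62 CPM (log2 fold change −1.93, adjusted p = 0.0106). With Meg3, 10 of the 12 had log2 fold changes below 0, and Meg3 was the only call.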
